A study of Mus musculus with 7 samples.

Results

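Lysyl oxidases and the collagen hydroxylases are the enzymes that stabilise collagen after its chains have been made. The 10 genes described here were chosen by name: the lysyl oxidases Lox, Loxl1, Loxl2, Loxl3 and Loxl4, the lysyl hydroxylases Plod1, Plod2 and Plod3, and the prolyl 4-hydroxylase alpha subunits P4ha1 and P4ha2. All 10 were among the 55401 genes of the count table, and all 10 were among the 17465 genes with enough reads to be tested. RNA was sequenced from right lung lobes of male C57BL/6 mice on day 21 after bleomycin had been instilled into the trachea to injure the lung. The mice were aged 6 to 8 weeks and weighed 20 to 25 g when they entered the model, and the study excluded mice that lost too little weight after bleomycin. The BLM group (n = 4) received bleomycin only, and the BLM+HBO group (n = 3) received bleomycin and, from day 7, hyperbaric oxygen (HBO), which is oxygen breathed under raised pressure, at 2.5 ATA for 90 min on each of 14 days. The sample records put the BLM mice in the chamber without pressurised oxygen and the study's methods describe them as untreated, and which applied is not settled here, so chamber handling and oxygen cannot be told apart. No lung without bleomycin was analysed here, so every comparison is between injured lungs with and without HBO. The comparison asks which transcripts of these enzymes differed after HBO in lungs in which the study also followed hypoxia signalling.

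Collagen chains are modified inside the cell before they fold. Prolyl 4-hydroxylases hydroxylate prolines, which lets the triple helix stay folded at body temperature, and lysyl hydroxylases hydroxylate lysines that later take part in crosslinks and carry sugars. Both kinds of hydroxylase use molecular oxygen, iron and ascorbate. Lysyl oxidases are secreted copper enzymes that also use oxygen. They convert lysines and hydroxylysines of collagen, and lysines of elastin, into aldehydes that then join neighbouring molecules. In scarred lung these crosslinks stiffen the matrix and slow its breakdown, and several genes of both families, among them Lox, Plod1, Plod2, P4ha1 and P4ha2, are known targets of hypoxia-inducible factor (HIF).

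The 5 lysyl oxidases share a catalytic domain whose copper is held by histidines, and the coding sequence of that copper site was compared between them. The 33 bases below were read 5′ to 3′ on the coding strand from GRCm38, with the 4 histidine codons of the site in capitals. In each gene the stretch is joined across an exon junction, of exons 3 and 4 in Loxl1, 10 and 11 in Loxl2 and Loxl3, and 11 and 12 in Loxl4. The coordinates, which therefore include an intron, are chr9:58293720-58294381 (minus strand) for Loxl1, chr14:69682316-69689037 (plus strand) for Loxl2, chr6:83049995-83050125 (plus strand) for Loxl3 and chr19:42598807-42599899 (minus strand) for Loxl4.
Loxl1: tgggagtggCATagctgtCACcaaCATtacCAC
Loxl2: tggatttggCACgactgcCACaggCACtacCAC
Loxl3: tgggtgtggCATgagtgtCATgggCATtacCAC
Loxl4: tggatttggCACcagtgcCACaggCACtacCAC
Loxl2 and Loxl4 differed at 2 of the 33 bases. Lox, whose sequence is not shown, and Loxl1 differed at 1 base. Every other pair of the 5 differed at 8 to 12 bases. Over whole exon sequences, the longest exact run that Lox and Loxl1 shared was 32 bases, and the longest that any pair of the 10 members shared was 47 bases, between Loxl2 and Plod3.

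The counts summed to between 18157161 and 26365969 reads per mouse, with 1 library per mouse. The deepest library was BLM+HBO 3 and the shallowest BLM+HBO 1. Members were covered by between 102 reads (Loxl4 in BLM+HBO 1) and 14503 reads (Lox in BLM 1). In counts per gene across the whole table, the pair of mice from different groups that lay closest was BLM 4 and BLM+HBO 2 (chi-square per gene 13.0), closer than any pair within a group (at least 22.1).

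All 5 lysyl oxidases had lower fitted levels in the BLM+HBO mice. The study asked for a fold change above 1.5 at an unadjusted P below 0.05 in DESeq2. The same thresholds were applied here to edgeR, and Lox, Loxl1, Loxl2 and Loxl4 passed them. None of the 5 hydroxylases passed. The 4 members called lower, 4 of 10, stand beside 2.89% of all tested genes called lower, and 0 members were called higher beside 3.4% of tested genes (6.29% in either direction). For 4 members, Loxl1, Loxl2, Loxl4 and Plod1, every BLM+HBO mouse lay below every BLM mouse in counts scaled to library size, beside 4.72% of tested genes apart in that direction and 8.77% in either. The median log2 fold change was -0.96 for the lysyl oxidases and -0.11 for the hydroxylases, beside 0.01 over all tested genes. In edgeR's quasi-likelihood test with Benjamini-Hochberg adjustment over all tested genes, 0 members and 0 of the 17465 genes had an adjusted P below 0.05, and the lowest adjusted P was 0.423. Without adjustment, 5 members and 1861 genes (10.7%) had a P below 0.05. DESeq2, the tool of the study, also gave 0 members at an adjusted P below 0.05. Its unadjusted calls were Lox, Loxl1, Loxl3 and Loxl4, so Loxl3 in place of Loxl2, beside 1.91% of 32868 genes called lower. Those genes were not filtered on low counts, so this share and the edgeR share of 2.89% have unlike bases. With no filter on low counts, edgeR gave 3 members at an adjusted P below 0.05, namely Lox (0.00693), Loxl2 (0.0350) and Loxl4 (0.0369), beside 0.711% of 32896 genes that were lower at that threshold and 1.18% in either direction. In whole lung, fewer cells of a type and less RNA per cell cannot be told apart.

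**Figure D1:**
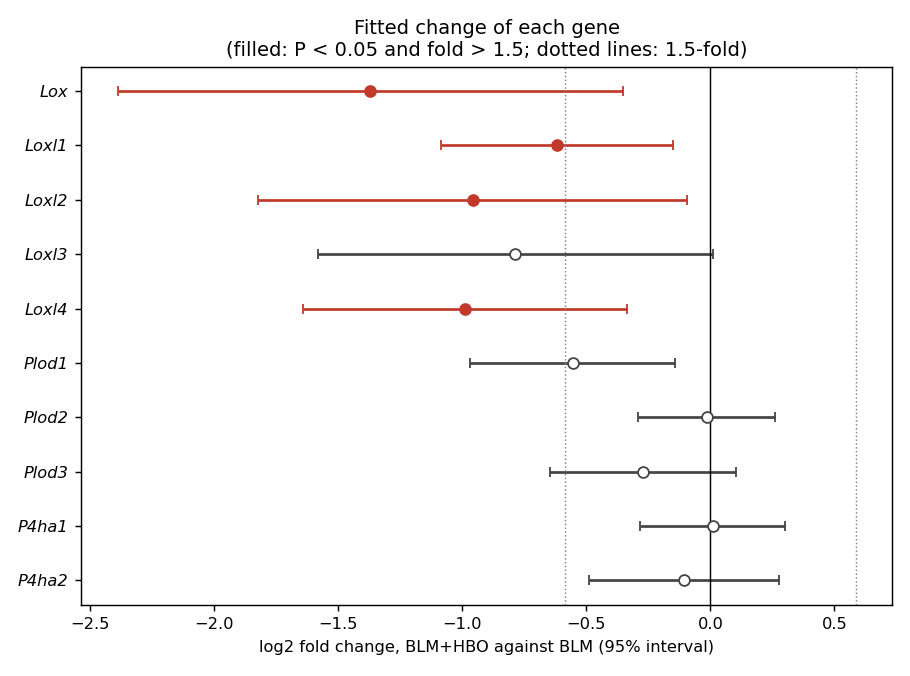
Log2 fold change of each member in BLM+HBO (n = 3) against BLM (n = 4) mice from edgeR, with 95% intervals, on a log2 axis where 0 means no difference. The 5 lysyl oxidases lie between -1.37 and -0.62 and the 5 hydroxylases between -0.55 and 0.01.

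Lox (ENSMUSG00000024529.14, chromosome 18, 52516067 to 52529867, minus strand, GRCm38) encodes the founding lysyl oxidase, which acts on fibrillar collagen and elastin. It stood at 799, 604, 466 and 338 CPM (counts scaled to the TMM-normalised library size) in BLM 1 to 4, and at 89.3, 380 and 170 CPM in BLM+HBO 1 to 3. The groups overlapped through 1 mouse, BLM+HBO 2, which lay above BLM 4. Mean Lox was 552 ± 197 CPM (SD, n = 4) in the BLM group, and in the BLM+HBO group it was 213 ± 150 CPM (SD, n = 3). The log2 fold change was -1.37 (SE 0.45, 95% interval -2.39 to -0.35, edgeR adjusted P = 0.423). Lox had the widest spread of the members, with an 8.94-fold ratio between its highest and lowest mouse. Without BLM+HBO 3 it no longer passed the thresholds.

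Loxl1 (ENSMUSG00000032334.10, chromosome 9, 58287738 to 58313186, minus strand) encodes the family member best known for maintaining elastic fibres. Its levels were 314, 331, 262 and 241 CPM in the BLM mice and 124, 222 and 216 CPM in the BLM+HBO mice. The groups did not overlap, since the highest BLM+HBO mouse lay below the lowest BLM mouse. The mean went from 287 ± 42.4 to 187 ± 54.9 CPM (log2 fold change -0.62, SE 0.21, edgeR adjusted P = 0.423). The call was lost when BLM 1, BLM 2 or BLM+HBO 1 was left out, with a log2 fold change of -0.39 in the last case.

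Loxl2 (ENSMUSG00000034205.16, chromosome 14, 69609068 to 69695834, plus strand) encodes a lysyl oxidase with scavenger receptor repeats that crosslinks collagen IV of basement membranes and fibrillar collagen. It was measured at 158, 96.9, 104 and 98.6 CPM in the BLM mice and at 23.2, 94.0 and 59.1 CPM in the BLM+HBO mice. BLM 1 stood above the other BLM mice, which lay close together, and BLM+HBO 2 lay just below them. The log2 fold change was -0.96 (SE 0.39, edgeR adjusted P = 0.445), with means of 114 ± 29.1 and 58.8 ± 35.4 CPM. DESeq2 did not call it, nor did edgeR with robust empirical Bayes, and the edgeR call was lost when BLM 1, BLM+HBO 1 or BLM+HBO 3 was left out.

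Loxl3 (ENSMUSG00000000693.10, chromosome 6, 83034173 to 83052562, plus strand) is a near relative of Loxl2 and Loxl4 in domain structure. Its CPM values were 50.8, 32.3, 30.0 and 28.1 in the BLM group and 9.53, 31.4 and 20.3 in the BLM+HBO group. BLM+HBO 2 lay within the BLM range. The means were 35.3 ± 10.5 and 20.4 ± 10.96 CPM. The log2 fold change of -0.79 (SE 0.36, 95% interval -1.58 to 0.01) did not pass the edgeR test (adjusted P = 0.471), while DESeq2 called Loxl3. Of the exon bases of Loxl3, 11.6% overlap the exons of Htra2 on the opposite strand, and the stated counting did not use strand, so reads of the overlap cannot be told apart.

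Loxl4 (ENSMUSG00000025185.14, chromosome 19, 42593982 to 42612813, minus strand) was the least abundant member. The BLM mice had 21.1, 11.05, 11.8 and 11.7 CPM and the BLM+HBO mice 5.43, 9.48 and 6.15 CPM. The groups did not overlap, and BLM 1 again stood above its group. The mean went from 13.9 ± 4.82 to 7.02 ± 2.16 CPM (log2 fold change -0.99, SE 0.29, edgeR adjusted P = 0.423). Loxl4 passed the thresholds in all 12 alternative settings in which its fold change was recomputed, including those that left out each mouse in turn.

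**Figure D2:**
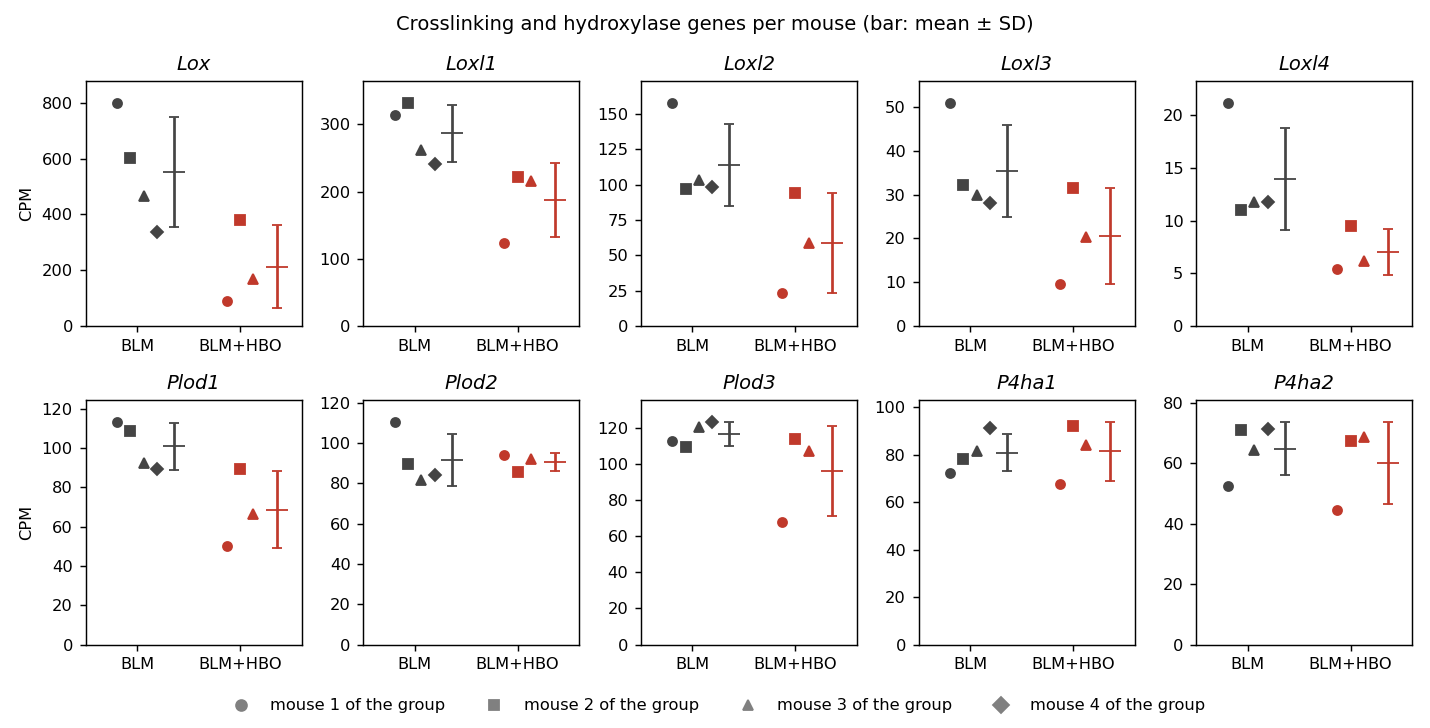
CPM of the 10 members in each mouse, with 1 panel per gene on its own linear axis from 0. Points are mice, and lines and bars are group means and SD (BLM n = 4, BLM+HBO n = 3). BLM+HBO 1 is the lowest mouse in 9 of the 10 panels.

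The order of the BLM+HBO mice was the same for all 5 lysyl oxidases, while that of the BLM mice varied between genes. The same order of the BLM+HBO mice held for Plod1, Plod3 and P4ha1. It also held for Col1a1, Col1a2, Col3a1, Col5a1, Col5a2 and Eln, so it was not particular to the lysyl oxidases. BLM+HBO 1 had the lowest level of all 5 lysyl oxidases, BLM 1 the highest level of 4 of them, and BLM+HBO 2 the highest level within its group of all 5. Over the 10 members BLM+HBO 1 was lowest in 9, the exception being Plod2, and BLM 1 was highest in 6.

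Plod1 (ENSMUSG00000019055.15, chromosome 4, 147909753 to 147936767, minus strand) encodes the lysyl hydroxylase that acts mainly on lysines of the collagen helix. It stood at 113, 109, 92.1 and 89.3 CPM in the BLM mice and at 50.3, 89.1 and 66.5 CPM in the BLM+HBO mice. The groups were apart by a small margin, with BLM+HBO 2 next to BLM 4. The mean went from 101 ± 11.9 to 68.6 ± 19.5 CPM (log2 fold change -0.55, SE 0.18, edgeR adjusted P = 0.423). The fold was 1.47, under the limit of 1.5, so that Plod1 was the only member with an unadjusted P below 0.05 that was not called. Members at that P without a fold limit, 5 of 10 and all lower, stand beside 5.54% of tested genes.

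Plod2 (ENSMUSG00000032374.14, chromosome 9, 92542223 to 92608428, plus strand) encodes the hydroxylase of telopeptide lysines, which directs crosslinks to the kind that accumulates in fibrotic tissue. Its levels were 110.5, 89.7, 81.8 and 84.1 CPM in the BLM mice and 94.1, 85.4 and 92.2 CPM in the BLM+HBO mice. Every BLM+HBO mouse lay inside the BLM range. The means were 91.5 ± 13.1 and 90.6 ± 4.56 CPM, and the log2 fold change of -0.02 had a 95% interval from -0.29 to 0.26 (edgeR adjusted P = 0.977). Of its exon bases, 6.42% overlap another annotated gene.

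Plod3 (ENSMUSG00000004846.10, chromosome 5, 136987019 to 136996648, plus strand) encodes an enzyme that both hydroxylates lysines and adds glucose to them. The BLM mice had 113, 109, 121 and 123 CPM and the BLM+HBO mice 67.9, 114 and 107 CPM. BLM+HBO 1 stood well below all other mice, while BLM+HBO 2 lay within the BLM range. The log2 fold change was -0.27 (SE 0.17, 95% interval -0.65 to 0.10, edgeR adjusted P = 0.585). Leaving out BLM+HBO 1 gave -0.07. Leaving out BLM+HBO 2 gave -0.41, at an unadjusted P below 0.05 and a fold under the limit. Of its exon bases, 11.9% overlap Znhit1 or Mir702.

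P4ha1 (ENSMUSG00000019916.14, chromosome 10, 59323296 to 59373304, plus strand) encodes the main catalytic subunit of prolyl 4-hydroxylase. It was measured at 72.3, 78.2, 81.4 and 91.2 CPM in the BLM mice and at 67.6, 92.1 and 84.2 CPM in the BLM+HBO mice. The groups overlapped throughout, and the BLM+HBO group held both the lowest and the highest mouse. The log2 fold change was 0.01 (95% interval -0.28 to 0.30, edgeR adjusted P = 0.987).

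P4ha2 (ENSMUSG00000018906.14, chromosome 11, 54100095 to 54131665, plus strand) encodes the second catalytic subunit. Its levels were 52.6, 71.0, 64.5 and 71.5 CPM in the BLM mice and 44.6, 67.3 and 68.7 CPM in the BLM+HBO mice. The groups overlapped, with BLM+HBO 1 lowest. The log2 fold change was -0.11 (95% interval -0.49 to 0.28, edgeR adjusted P = 0.854). The intervals of P4ha1, P4ha2 and Plod2 leave room for changes in either direction.

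Because the study followed HIF activity, the promoters of the members were searched for the core letters of the HIF binding motif, ACGTG or GCGTG, on both strands. The window ran from 250 bases before to 50 bases after the RefSeq start (GRCm38.p6). Promoters were available for 5 of the 10 members, and not for Lox, Loxl1, Loxl2, Loxl3 and Plod2. Loxl4 was the only called member among those available, so called and uncalled members cannot be compared in these windows. The promoters of Loxl4 and of 3 hydroxylases, which were not called, are printed 5′ to 3′ on the gene's strand. Each stretch of matching letters is in capitals (overlapping matches merged, and matches on the other strand read as CACGT or CACGC).
Loxl4: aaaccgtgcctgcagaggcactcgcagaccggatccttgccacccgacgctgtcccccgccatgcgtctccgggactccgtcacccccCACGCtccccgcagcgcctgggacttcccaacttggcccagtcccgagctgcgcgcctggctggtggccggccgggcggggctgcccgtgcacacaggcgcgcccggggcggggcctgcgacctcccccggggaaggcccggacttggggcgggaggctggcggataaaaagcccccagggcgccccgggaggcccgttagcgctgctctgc
Plod1: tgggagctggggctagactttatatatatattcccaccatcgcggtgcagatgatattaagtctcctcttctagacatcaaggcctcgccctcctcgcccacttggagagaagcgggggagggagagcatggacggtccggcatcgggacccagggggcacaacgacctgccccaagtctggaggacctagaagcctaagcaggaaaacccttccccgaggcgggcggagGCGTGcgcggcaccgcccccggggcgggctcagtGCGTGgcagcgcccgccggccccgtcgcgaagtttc
P4ha1: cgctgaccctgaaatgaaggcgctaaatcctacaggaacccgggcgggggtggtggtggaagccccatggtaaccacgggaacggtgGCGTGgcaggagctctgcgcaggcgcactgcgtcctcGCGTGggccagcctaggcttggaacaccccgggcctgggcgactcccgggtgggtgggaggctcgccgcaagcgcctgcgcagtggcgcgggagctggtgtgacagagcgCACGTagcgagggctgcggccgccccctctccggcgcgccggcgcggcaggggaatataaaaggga
P4ha2: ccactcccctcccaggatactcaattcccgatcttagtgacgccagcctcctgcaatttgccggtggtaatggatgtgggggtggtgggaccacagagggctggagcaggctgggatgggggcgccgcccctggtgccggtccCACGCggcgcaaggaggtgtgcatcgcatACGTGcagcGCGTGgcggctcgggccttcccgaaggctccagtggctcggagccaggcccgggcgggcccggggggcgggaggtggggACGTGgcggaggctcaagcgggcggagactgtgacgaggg
The windows lie at chr19:42612757-42613056 (minus strand) for Loxl4, chr4:147936727-147937026 (minus strand) for Plod1, chr10:59323046-59323345 (plus strand) for P4ha1 and chr11:54100674-54100973 (plus strand) for P4ha2. Loxl4 held 1 stretch, Plod1 held 2, P4ha1 held 3, and P4ha2 and Plod3 held 4 each. Of all 32851 promoters of this length, 43.8% held at least 1 stretch and 2.33% held 4 or more. These matches describe letters in a window and were not tested for binding.

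Levels were compared between genes per length, as TPM (length-scaled shares of all transcripts) computed from the counts and the exon lengths of the table. In the BLM mice Lox was the most abundant member at 352 ± 133 TPM, followed by Loxl1 at 264 ± 39.5 TPM, and the ranges of these neighbours overlapped. Plod3 came next at 78.4 ± 5.95 TPM and lay apart from Loxl1. Loxl2 at 64.5 ± 18.6, P4ha1 at 59.7 ± 6.71, Plod2 at 51.7 ± 9.07 and Plod1 at 45.3 ± 6.10 TPM followed with overlapping ranges between neighbours. P4ha2 at 31.6 ± 4.07 TPM lay apart from Plod1, and Loxl4 at 10.1 ± 3.86 TPM lay apart from Loxl3 at 23.4 ± 7.72 TPM. In the BLM+HBO mice Loxl1 (172 ± 52.3 TPM) stood above Lox (137 ± 101 TPM) in mean, and every pair of neighbours in the order overlapped. On the TPM scale the groups overlapped for Loxl2 and Plod1, which were apart in CPM.

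**Figure D3:**
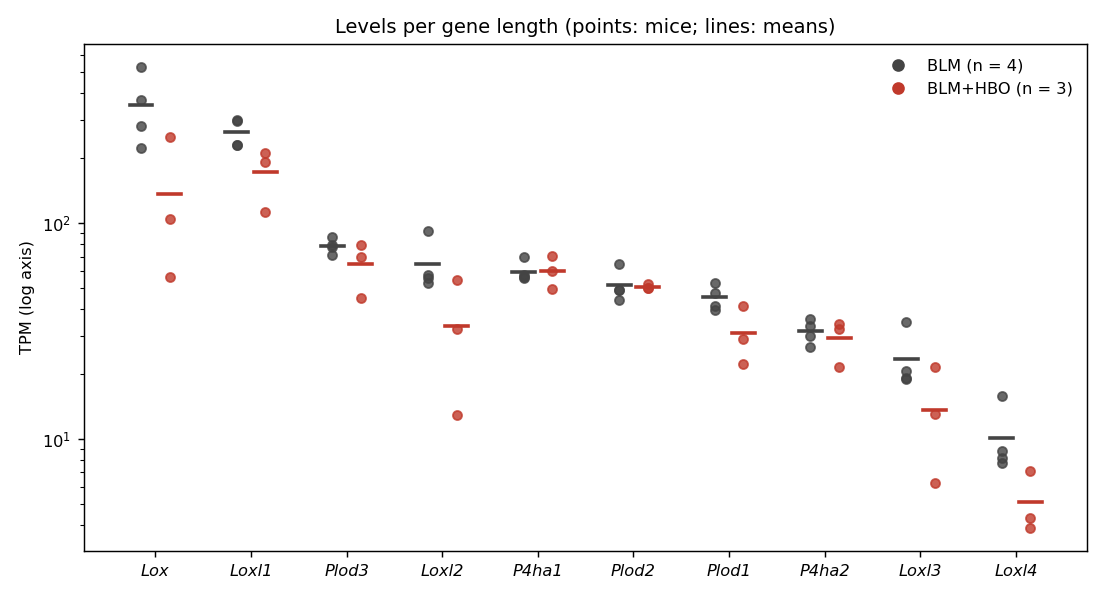
TPM of the 10 members on a log axis, ordered by their mean in the BLM group, with 1 point per mouse (BLM n = 4, BLM+HBO n = 3). Lox and Loxl1 lie above the other members in both groups by mean, and Loxl4 is lowest in both.

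The summed TPM of the 5 lysyl oxidases was 973, 750, 597 and 537 in the BLM mice and 192, 545 and 347 in the BLM+HBO mice. The sum of the 5 hydroxylases was 279, 257, 248 and 282 TPM against 191, 275 and 242 TPM. The lysyl oxidase sum therefore varied more between mice, and in both sums BLM+HBO 2 lay within the BLM range. Lox made up 54.4%, 49.7%, 47.4% and 41.4% of the lysyl oxidase sum in the BLM mice and 29.3%, 45.9% and 30.2% in the BLM+HBO mice. Loxl1 made up 30.9%, 39.5%, 38.7% and 42.7% against 58.7%, 38.8% and 55.5%. Lox was thus the larger part in 3 of the 4 BLM mice and in BLM+HBO 2, and Loxl1 in the other mice. Loxl2 held similar mean shares in both groups, 9.14% and 8.68%.

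Whether related enzymes shifted by different amounts was tested on 3 log2 CPM ratios per mouse with two-sided exact permutation tests, for which the smallest possible P with 4 and 3 mice is 0.0286. The ratio of Plod2 to Plod1 was -0.04, -0.28, -0.17 and -0.09 in the BLM mice and 0.90, -0.06 and 0.47 in the BLM+HBO mice. BLM+HBO 2 again lay among the BLM mice. The difference of 0.58 had an exact P of 0.0571 and an adjusted P of 0.171 over the 3 ratios. The difference was 0.35 when BLM+HBO 1 was dropped, and dropping BLM+HBO 2 instead raised it to 0.83. The ratio of Lox to Loxl2 differed by -0.40 (exact P = 0.2, adjusted P = 0.3) and that of P4ha2 to P4ha1 by -0.13 (exact P = 0.343, adjusted P = 0.343). None of the 3 ratios passed the test, and the ranges of the groups overlapped for each. When a mouse was left out, the difference lay between -0.56 and -0.25 for Lox to Loxl2 and between -0.20 and -0.05 for P4ha2 to P4ha1.

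Most substrates of these enzymes were also called lower. Of 6 crosslinked substrate genes, 5 were called lower, beside 2.89% of all tested genes, with log2 fold changes of -1.20 (SE 0.47) for Col1a1 and -0.98 (SE 0.41) for Col1a2, the chains of collagen I, -0.73 (SE 0.30) for Col3a1, and -1.09 (SE 0.44) and -1.03 (SE 0.46) for Col5a1 and Col5a2. The groups overlapped for all 5, since BLM+HBO 2 lay above BLM 4 in each. Eln, which encodes elastin, had means of 4634 ± 1527 and 2021 ± 1363 CPM and was not called (log2 fold change -1.20, SE 0.54, edgeR adjusted P = 0.471), although its groups did not overlap. The mean log2 CPM of Col1a1, Col1a2 and Col3a1 differed by -1.17 between the groups. Relative to that mean, the difference was -0.38 for Lox, 0.03 for Loxl2, 0.20 for Loxl4, 0.27 for Loxl3 and 0.52 for Loxl1. For the hydroxylases it was 0.58 for Plod1, 0.86 for Plod3, 1.05 for P4ha2, 1.16 for Plod2 and 1.17 for P4ha1. Set against collagen, the hydroxylases and Loxl1, Loxl3 and Loxl4 thus stood higher by mean in the BLM+HBO mice. Loxl2 stood nearly level and Lox lower. Because the collagen mean itself was lower, a gene that did not differ between the groups would also stand higher on this scale. The ranges of the groups overlapped for all 10 members, and these differences were not tested.

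**Figure D4:**
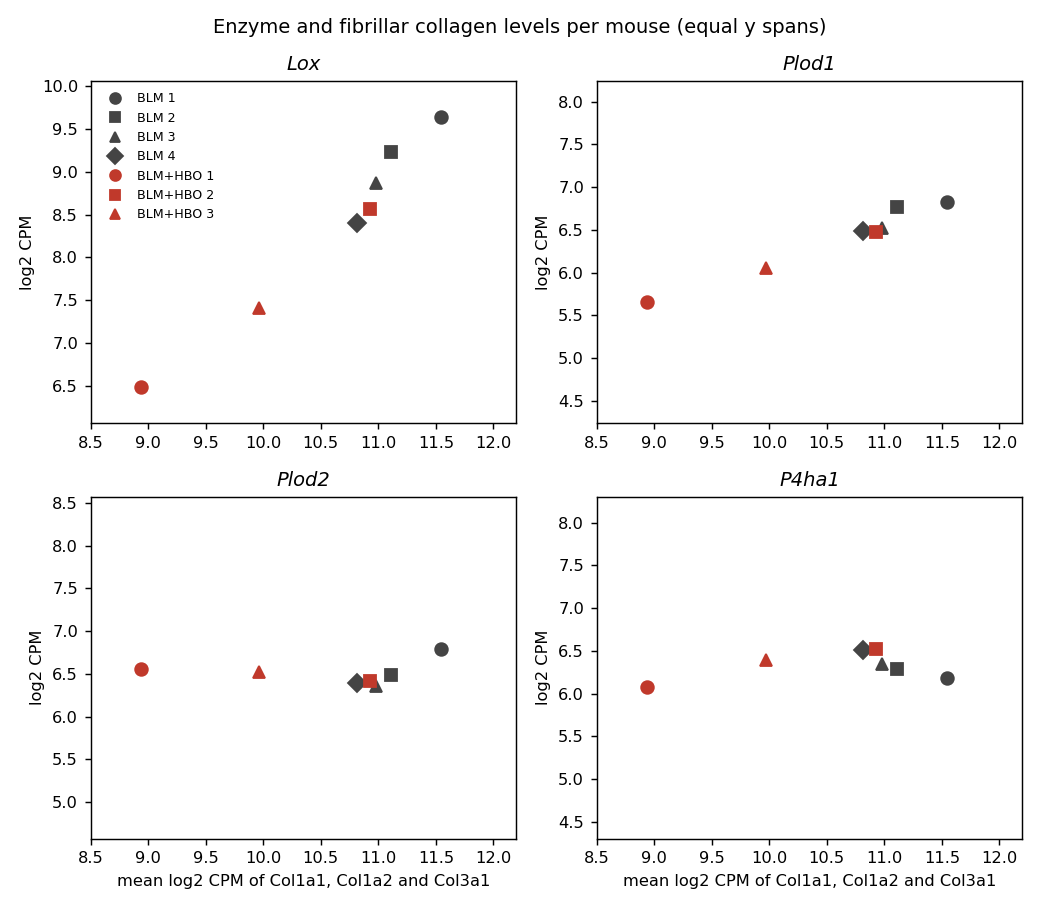
Log2 CPM of Lox, Plod1, Plod2 and P4ha1 in each of the 7 mice against the mean log2 CPM of Col1a1, Col1a2 and Col3a1 in the same mouse, with panels of equal height in log2 units. Lox follows the collagen level from BLM+HBO 1 to BLM 1, while Plod2 and P4ha1 stay within a narrow band.

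Other genes of collagen hydroxylation, folding, export, cleavage and crosslinking were read from the same fit. Of 25 such genes, 21 had negative and 4 positive fold changes, with a median log2 fold change of -0.28, and 3 were called lower (beside 2.89% of all tested genes) and 2 higher. Those called lower were P4ha3, the third prolyl 4-hydroxylase alpha subunit (26.6 ± 8.96 against 10.8 ± 8.54 CPM, log2 fold change -1.30, SE 0.50), Fkbp10, a collagen chaperone that works with Plod2 (95.8 ± 11.4 against 58.7 ± 25.6 CPM, -0.71, SE 0.24), and Adamts2, which removes the amino propeptide (210 ± 35.4 against 133 ± 55.7 CPM, -0.66, SE 0.28). Those called higher were Colgalt2, a collagen galactosyltransferase (10.8 ± 1.73 against 16.4 ± 4.45 CPM, 0.60, SE 0.21), and Pcolce2, an enhancer of propeptide cleavage (59.0 ± 16.4 against 107 ± 48.7 CPM, 0.86, SE 0.31). P4hb, the beta subunit that P4ha1 and P4ha2 need for activity, was the most abundant of the list at 829 ± 57.0 against 671 ± 58.8 CPM. Its groups did not overlap, with a log2 fold change of -0.30 (SE 0.12, edgeR adjusted P = 0.447) that was under the fold limit. The other abundant genes were not called, with log2 fold changes of -0.36 for Serpinh1, the collagen chaperone HSP47, -0.28 for the transglutaminase Tgm2, -0.15 for Pxdn, which crosslinks collagen IV, and -0.23 for Colgalt1. Without BLM 1 or without BLM+HBO 1, 1 gene of the list was called, and without BLM+HBO 2, 8 were. Calls over all genes were 706, 659 and 1914 in those fits.

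The genes whose log2 CPM followed the called members most closely over the 7 mice are given as a description, since r over both groups includes the difference between them. For Lox they were Igf1 (Pearson r = 0.996), Pla1a (0.993) and Plod1 (0.993). For Loxl1 they were B4galt2 (0.992), Dip2a (0.991) and Adamts2 (0.990), and for Loxl2 Col12a1 (0.995), Fhl3 (0.995) and Acsl6 (0.994). For Loxl4 they were C3ar1 (0.988), Eno1 (0.986) and Crls1 (0.977). Without the 2 mice farthest from the median, r lay between 0.943 and 0.987. Among the genes named, Plod1 was the only collagen hydroxylase, and a matrix gene stood among those of Loxl1 and of Loxl2. Many other genes followed closely over the 7 mice. Pearson r was above 0.95 for 241 genes with Lox, 77 with Loxl1, 195 with Loxl2 and 66 with Loxl4.

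Markers of the cell types in the tissue were read beside these results. Summed fibroblast markers ranged from 635 to 925 CPM in the BLM mice and from 567 to 735 CPM in the BLM+HBO mice. Of these 6 genes, 2 had negative and 4 positive fold changes (median log2 fold change 0.03), with Dcn called lower and Tcf21 called higher. Summed smooth muscle and myofibroblast markers ranged from 581 to 855 against 476 to 702 CPM. Of these 5 genes, 3 had negative and 2 positive fold changes, with Acta2 called lower. Macrophage markers ranged from 754 to 897 against 528 to 785 CPM, and 3 of 6, Adgre1, Mrc1 and Marco, were called lower. Of the 6, 5 had negative and 1 a positive fold change. Lung epithelial markers, which were present in all mice, ranged from 13105 to 25136 against 19093 to 41162 CPM. Of these 5 genes, 1 had a negative and 4 positive fold changes, with Scgb1a1 called higher. Heart muscle markers ranged from 58.6 to 167 against 142 to 579 CPM, and 6 of 6 were called higher. Cartilage markers were near 0 in both groups, with at most 1.91 CPM in sum, and 3 of the 5 were at 0 in at least 1 mouse. The part of these markers in the differences of the lysyl oxidases was not tested.

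How far single mice carried the differences was read by leaving each out in turn. Between 2 and 6 members were called. There were 2 without BLM 1 or without BLM+HBO 1 (Lox and Loxl4) and 2 without BLM+HBO 3 (Loxl1 and Loxl4). Without BLM+HBO 2 there were 6 (the 5 lysyl oxidases and Plod1). Calls over all genes moved too, with 706 without BLM 1, 659 without BLM+HBO 1, 881 without BLM+HBO 3 and 1914 without BLM+HBO 2. With all mice they numbered 1098. Every lysyl oxidase, Plod1 and Plod3 kept a negative fold change in all 7 of these fits. P4ha1, P4ha2 and Plod2 changed sign in some of them.

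**Figure D5:**
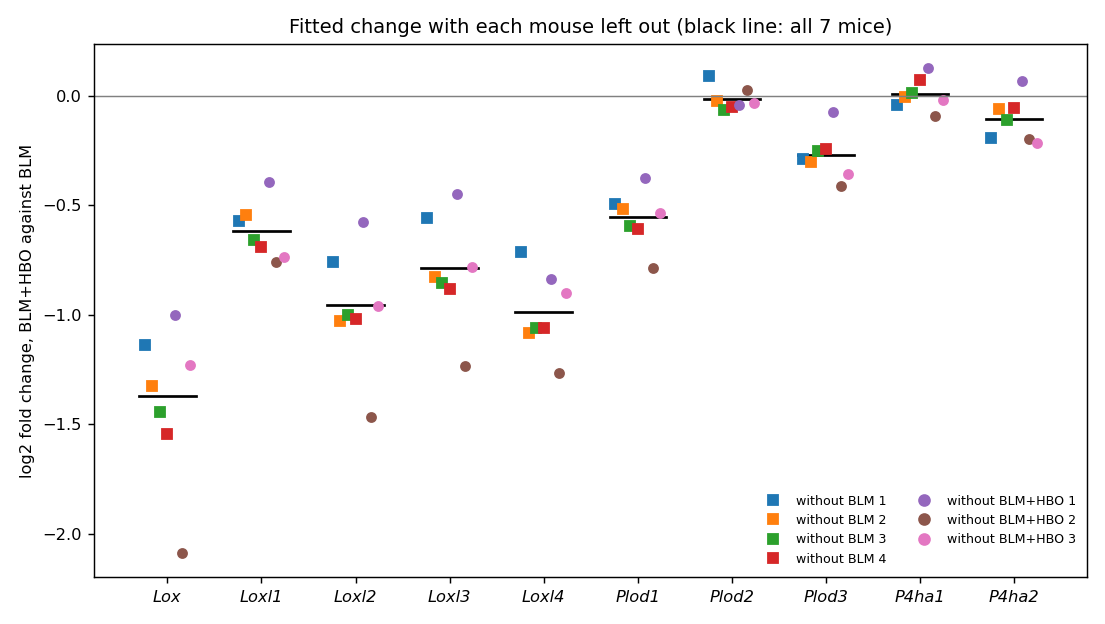
Log2 fold change of each member with all 7 mice and with each mouse left out in turn, from edgeR. Lox ranges from -2.09 to -1.003 and Loxl2 from -1.47 to -0.58, while P4ha1 ranges from -0.09 to 0.13 across 0.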

How the data were processed

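RNA from right lung lobes of 4 BLM and 3 BLM+HBO mice was sequenced as 1 library per mouse. The authors deposited raw read counts per gene (55401 genes) with gene coordinates and exon lengths. The submitters' processing notes name HISAT2 2.2.0 and featureCounts 2.2.0 on GRCm38, and the release of the annotation is not given in the sources used here. The study's methods state default featureCounts settings, which ignore strand. Symbols for 55141 genes came from the GENCODE annotation supplied for GRCm38. Groups came from the sample records, and the 7 count columns were each assigned to a mouse.

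The filterByExpr filter (minimum count 10, minimum total 15) left 17465 genes, which were scaled by TMM. BLM+HBO was compared with BLM by edgeR 4.0.16's quasi-likelihood test under R 4.3.3, fitted on all tested genes, with Benjamini-Hochberg adjustment over all of them (common biological coefficient of variation 0.222). A gene was called at an unadjusted P below 0.05 and a fold change above 1.5 in edgeR, thresholds that the study applied to DESeq2. Intervals are 95%. CPM used the TMM-scaled library sizes, log2 CPM a prior count of 2, and TPM the deposited exon lengths. Ratios were compared by two-sided exact permutation tests over all 35 assignments of mice to groups. Their p-values were Benjamini-Hochberg adjusted in scipy 1.17.1. The fits were tested on simulated data. Counts summed to 18157161 to 26365969 per mouse, and p-values set the difference between groups against the spread between these mice.

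The members, the gene lists and the tests were chosen with earlier results of these data known. The genes named are the 10 members, the substrates, the collagen maturation genes that were called or were among the 6 of highest CPM, the 3 genes most alike in log2 CPM to each called member, and marker genes. Alternatives were DESeq2 1.42.0, RLE factors, no filter on low counts, a replicate block, robust empirical Bayes, no fold limit, a prior count of 0.5 for the ratios, and leaving out each mouse.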

Additional observations from a re-analysis of the deposited data

Results flagged for a closer look

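In each group of 4 mice, the gap between the most extreme mouse and its nearest neighbour was divided by the whole range of the group, and 2 of 13 examined sets of values exceeded Dixon's 95% critical value for 4 samples. Chance alone flags about 1 in 20 groups. Both concerned BLM 1. For Loxl2 in the BLM group the log2 CPM of BLM 1 was 7.30 and those of the others were 6.60, 6.70 and 6.63, which gave a gap of 0.860 of the range. For Loxl4 the log2 CPM of BLM 1 was 4.41 and those of the others were 3.48, 3.57 and 3.57, which gave 0.898. Without BLM 1 Loxl2 no longer passed the thresholds and Loxl4 still did.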

How the results depend on the processing

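Of the 10 members, 4 were called with all mice, and leaving out each mouse in turn gave 2 to 6. Members at an adjusted P below 0.05 numbered 0, 0 to 1 when a mouse was left out (Lox without BLM+HBO 2) and 3 without the filter on low counts. Without BLM+HBO 2, calls over all genes rose to 1914 from 1098, and the share of all genes at that adjusted P is not given here. Without the filter, 1.18% of 32896 genes were at that adjusted P. Over all settings the adjusted P ranged from 0.00693 to 0.802 for Lox, from 0.0350 to 0.802 for Loxl2 and from 0.0369 to 0.802 for Loxl4. The cause was not tested. Called collagen maturation genes numbered 1 to 8 when a mouse was left out and 10 with no fold limit. Over all genes, 1098 were called, 659 to 1914 when a mouse was left out, 1940 without the filter and 1861 with no fold limit. Signs reversed only for members near 0 when a mouse was left out, with log2 fold changes from -0.0909 to 0.125 for P4ha1, from -0.217 to 0.0679 for P4ha2 and from -0.0648 to 0.0878 for Plod2. With a replicate block 5 members were called, Plod1 being added, and calls over all genes rose to 1258 from 1098. Deviations of mice of the same number had correlations of -0.008, -0.066 and 0.161, within the range of other pairs (-0.179 to 0.165). Whether mice of the same number shared more than a number cannot be told from these values. With 4 and 3 mice, changes within the 95% intervals of Loxl3, Plod2, Plod3, P4ha1 and P4ha2 cannot be told from none.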
